A study of Mus musculus with 2 samples.

Results

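The Krüppel-like factors (KLFs) are a family of transcription factors, and 10 of their genes, Klf2, Klf3, Klf4, Klf6, Klf7, Klf9, Klf10, Klf11, Klf13 and Klf16, were followed here in macrophages before and after interleukin-4 (IL-4). The genes were taken by name, through their NCBI gene numbers, from tables that list 15623 genes in all, and all 10 were listed in both samples. The cells were macrophages elicited into the peritoneum with thioglycollate in C57BL/6 mice, wild-type animals that the study's methods give as 6 to 8 weeks old. They were purified by adherence and starved in low-serum medium. The NT group was left nontreated and the IL-4 group received mouse IL-4 for 6 h. IL-4 is the Th2 cytokine that activates Stat6 and drives M2 polarization. Each group held 1 library, and how many mice went into a library is not given in the sources used here. One label names bone marrow as the tissue, whereas the source and the protocol describe peritoneal cells.

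KLF proteins bind GC-rich or CACCC-type DNA through 3 zinc fingers at the carboxyl terminus, and they differ in the rest of the protein. Members of the first subgroup here (Klf2, Klf4, Klf6 and Klf7) are known mainly as activators, Klf3 is known as a repressor that recruits the corepressor CtBP, and Klf9, Klf10, Klf11, Klf13 and Klf16 are known to recruit the corepressor Sin3a. In myeloid cells, Klf2 is known to restrain inflammatory activation, Klf4 has been linked to monocyte differentiation and to M2 polarization together with Stat6, and Klf6 has been linked to proinflammatory gene expression.

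The fingers make these genes alike at the DNA level, which matters for reads that could be shared between them. Over the 243 coding bases of the 3 fingers, the identity between members ranged from 57.2% (Klf4 against Klf9 and Klf7 against Klf9) to 81.1% (Klf6 against Klf7). The other close pairs were Klf2 with Klf4 (78.2%), Klf10 with Klf11 (76.1%) and Klf13 with Klf16 (75.3%). The stretch that encodes the linker before the third finger and the finger itself is shown for the 4 members on which the results turn and for Klf2, the nearest relative of Klf4, from GENCODE M21 transcripts on GRCm38, 5′ to 3′, with the codons of the zinc-binding cysteines and histidines in capitals.
Klf2: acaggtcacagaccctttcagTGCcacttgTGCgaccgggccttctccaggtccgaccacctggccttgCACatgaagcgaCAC
Klf4: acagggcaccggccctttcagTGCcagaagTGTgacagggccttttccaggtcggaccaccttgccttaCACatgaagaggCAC
Klf7: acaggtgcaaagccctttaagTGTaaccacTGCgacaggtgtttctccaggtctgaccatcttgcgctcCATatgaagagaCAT
Klf9: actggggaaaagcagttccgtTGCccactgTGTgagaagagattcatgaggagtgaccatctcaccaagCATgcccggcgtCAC
Klf13: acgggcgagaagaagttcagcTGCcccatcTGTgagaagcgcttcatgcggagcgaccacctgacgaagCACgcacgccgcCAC
Even so, few 31-base words of a member occurred in the transcript of any other gene when read on the same strand. Overlap with genes on the opposite strand, as for Klf7 and Klf3 below, was not counted in these words. The share was 0% for Klf2, Klf6, Klf9, Klf10 and Klf16, and the highest was 2.03% for Klf4. Expected counts were whole for 8 members. Klf11 and Klf13 had fractional counts, as RSEM gives where it divides a read among transcripts, and 0.271% and 0.911% of their words occurred in another gene.

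The NT library held 11035641 expected counts (the estimate of reads per gene, not scaled for depth) and the IL-4 library held 11250099. Ratios are given as log2 of IL-4 over NT after scaling to these totals, with exact 95% Clopper-Pearson intervals. The intervals cover counting error only and treat each read as an independent molecule. With 1 library per group there was no replicate error and no test between conditions, so every difference is between these 2 libraries. In such bulk samples a change in RNA per cell and a change in the mix of cells cannot be told apart. A gene is described as having risen or fallen when the size of its log2 ratio reached 0.75, the fold of the study for this comparison, and its counting interval excluded 0. In an edgeR exact test that assumed a coefficient of variation of 0.2 between replicates, 0 members passed. Few of all genes with reads did so either, 178 as higher and 80 as lower. Passing required the fold and a p-value of at most 0.05 after Benjamini-Hochberg adjustment over all genes with reads. All 8 M2 genes that served as a check of the stimulation rose, including Arg1 from 30 to 7711 counts, Chil3 from 121 to 9566, Mrc1 from 679 to 6962 and Tgm2 from 1662 to 3071.

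The members differed between the libraries in opposite directions. Klf4 and Klf9 rose, Klf7 and Klf13 fell, and 6 members did neither. Thus 2 of 10 members rose, where 4.07% of all 15593 genes with reads did, and 2 of 10 fell, where 6.28% of all genes did. With so few members each gene moves such a share by a large step. The median log2 ratio of the 10 members was -0.19 and that of all genes was -0.03, and 3 members had a ratio above 0. All 10 members had at least 50 counts in the library with more. Among the 9925 genes of the series with as many, 4.32% rose and 6.83% fell.

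Before stimulation the family was dominated by Klf6. On the FPKM scale, which takes transcript length into account and allows levels of different genes to be compared, Klf6 stood at 74.65 in NT, followed by Klf13 at 16.29, Klf3 at 14.96, Klf9 at 11.97 and Klf10 at 9.73. Klf2 (5.40), Klf4 (4.98), Klf16 (4.66) and Klf7 (3.54) formed a lower group, and Klf11 was lowest at 1.38. Klf13 and Klf3 did not differ beyond counting error (ratio 1.09, interval 0.969 to 1.22), nor did any neighbours from Klf2 to Klf7. Klf6 lay at percentile 94.1 of the listed genes by FPKM, Klf4 at 49.5 and Klf11 at 32.1.

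**Figure D1:**
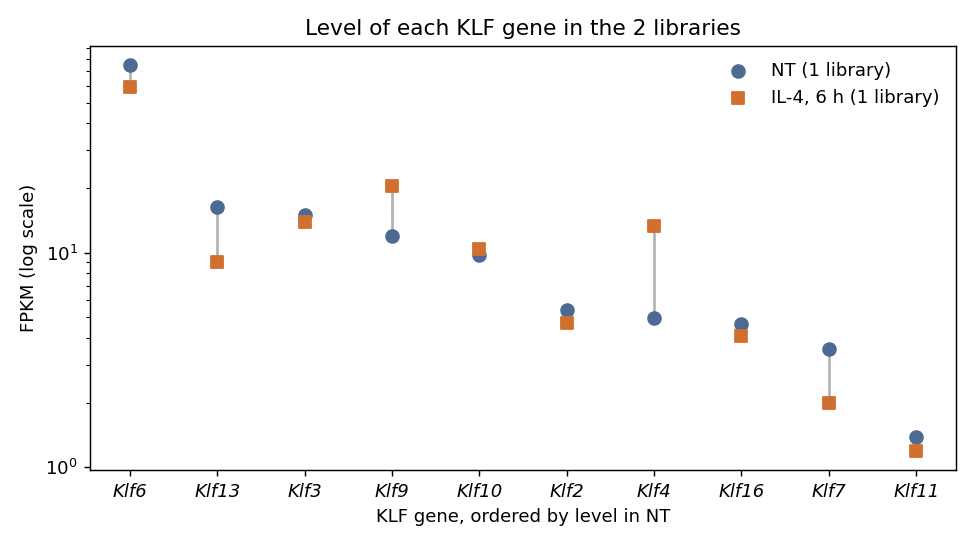
FPKM (log scale) of each KLF gene in the NT library (circles) and the IL-4 library (squares), ordered by the NT level, with a grey line joining the values of a gene. Klf4 moved from 4.98 to 13.23 and Klf9 from 11.97 to 20.33, whereas Klf13 moved from 16.29 to 8.99, and Klf6 was highest in both libraries.

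In the IL-4 library Klf6 was still highest, at 59.39 FPKM, but the order below it changed. Klf9 stood second at 20.33, and was 1.46 times the level of Klf3 (interval 1.29 to 1.66). Klf3 (13.91) and Klf4 (13.23) did not differ beyond counting error (ratio 1.05, interval 0.914 to 1.21). Klf10 (10.37) and Klf13 (8.99) followed, then Klf2 (4.71) and Klf16 (4.10), which did not differ from each other, and last Klf7 (2.0) and Klf11 (1.19). Klf13 thus went from the second to the sixth place and Klf4 from the seventh to the fourth. Counting error did not separate Klf13 from Klf3 in NT, nor Klf4 from Klf2 and Klf16 in NT or from Klf3 in IL-4.

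The summed FPKM of the 10 genes was 147.6 in NT and 138.2 in IL-4. Klf6 took 50.6% of this sum in NT and 43.0% in IL-4. Klf4 went from 3.38% to 9.57% of it, Klf9 from 8.11% to 14.7% and Klf13 from 11.04% to 6.50%. In counts, the 10 genes summed to 6345 in NT and 5736 in IL-4 (log2 ratio -0.17, interval -0.23 to -0.12). Without Klf6 the sums were 2838 and 2890 (log2 ratio -0.00, interval -0.08 to 0.07).

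**Figure D2:**
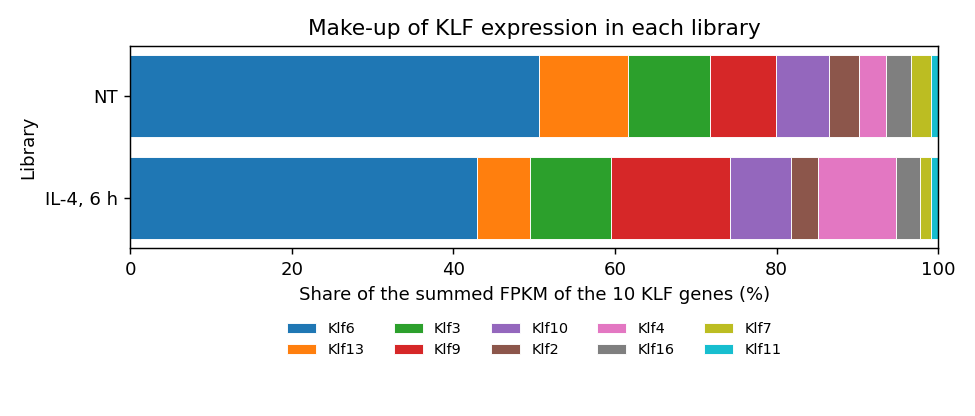
Share (%) of the summed FPKM of the 10 KLF genes taken by each gene, in the NT library (upper bar) and the IL-4 library (lower bar). Klf6 took the largest share in both, 50.6% and 43.0%, and the shares of Klf4 and Klf9 were larger in the IL-4 bar.

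Klf4, also known as a factor used to reprogram cells to pluripotency, had the largest difference of the 10 members. It lies on chromosome 4 from 55527137 to 55532475 (GRCm38). Klf4 had 169 counts in NT and 458 in IL-4. This was a rise of 2.65-fold (log2 ratio 1.41, interval 1.15 to 1.67). The whole interval lay past the fold, which no other member achieved. Of the 9925 genes with at least 50 counts, 1.73% had a higher ratio than Klf4.

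Klf2, the nearest relative of Klf4 by its fingers and a factor of quiescence in T cells and endothelium, did not move with it. Klf2 (chromosome 8, 72319062 to 72321654) had 108 counts in NT and 96 in IL-4 (log2 ratio -0.20, interval -0.61 to 0.21). Depth limits this value, since the interval still allows a fall of 0.61 on the log2 scale. Within each library, where no scaling between libraries enters, the FPKM of Klf4 was 0.922 times that of Klf2 in NT and 2.81 times in IL-4. This ratio changed by 3.04-fold (exact conditional interval 2.17 to 4.28).

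Klf6, a broadly expressed member known to be induced early after many stimuli, lies on chromosome 13 from 5861489 to 5870393. It had 3507 counts in NT and 2846 in IL-4, a log2 ratio of -0.33. Its interval from -0.40 to -0.26 was the narrowest of the family and excluded 0, but the ratio was well short of the fold.

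Klf7, known for its part in neurite outgrowth, lies on chromosome 1 from 64029448 to 64122345 and was among the lowest members. It had 52 counts in NT and 30 in IL-4. Its log2 ratio was -0.81, and the interval from -1.52 to -0.15 was the widest of the family. On the log2(FPKM + 1) scale the difference was -0.60, short of the fold. The deposited tables count Klf7 on a length of 1344 bases, whereas its longest GENCODE transcript has 7662 bases. Of these, 3196 exonic bases overlap Gm26649 on the opposite strand, and whether the counting used strand is not given in the sources used here. The level of Klf7 relative to Klf6, the member most like it in its fingers, had a change that could not be told from none (Klf6 over Klf7 changed 1.41-fold, interval 0.878 to 2.29).

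**Figure D3:**
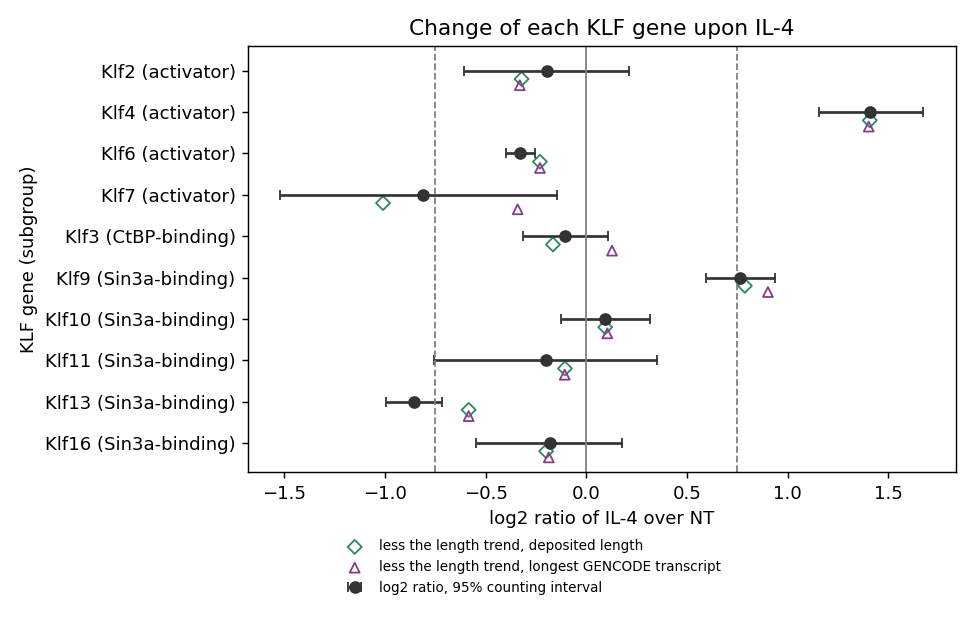
Log2 ratio of IL-4 over NT of each KLF gene (filled circles, bars are 95% counting intervals), by subgroup, with dashed lines at the fold of 0.75. Open diamonds and triangles give the ratio after the median of genes of similar transcript length was subtracted, at the deposited length and at the longest GENCODE transcript: Klf4 and Klf9 kept ratios of at least 0.75, Klf13 moved inside the lines at both lengths, and Klf7 at the GENCODE length only.

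Klf3, the CtBP-recruiting repressor (chromosome 5, 64803521 to 64832901), was among the more abundant members and barely differed between the libraries. It had 383 counts in NT and 363 in IL-4 (log2 ratio -0.10, interval -0.32 to 0.11). The deposited model of Klf3 holds 2314 bases and the longest GENCODE transcript 5221. A total of 404 exonic bases of that transcript overlap Gm20033 on the opposite strand.

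The Sin3a-recruiting members split. Klf9, a hormone-responsive factor induced by glucocorticoids and thyroid hormone, lies on chromosome 19 from 23141226 to 23168129. Klf9 had 434 counts in NT and 752 in IL-4, a rise of 1.70-fold. Its log2 ratio of 0.76 was just past the fold, and the interval from 0.59 to 0.94 spanned it. On the log2(FPKM + 1) scale the difference was 0.72, short of the fold. Among the 9925 genes with at least 50 counts, 4.15% had a higher ratio.

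Klf13, known from T cells as an activator of the chemokine gene Ccl5, went the other way. It lies on chromosome 7 from 63886351 to 63938915 and had 1164.12 counts in NT and 655.33 in IL-4, so the IL-4 level was 0.552 times that of NT. The log2 ratio was -0.86 with an interval from -0.998 to -0.718. Of the genes with at least 50 counts, 4.95% had a lower ratio. Klf9 stood at 0.735 times the FPKM of Klf13 in NT and at 2.26 times in IL-4. That is a change of 3.08-fold (exact conditional interval 2.64 to 3.60), and the order of the pair was reversed.

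The remaining Sin3a-recruiting members showed no change past the fold. Klf10 (chromosome 15, 38291464 to 38300711), a gene induced early by TGF-β, had 330 counts in NT and 359 in IL-4 (log2 ratio 0.09, interval -0.13 to 0.31). Klf11 (chromosome 12, 24651371 to 24662782), its closest relative, had 60.98 and 54.02 counts (log2 ratio -0.20, interval -0.76 to 0.35). The intervals of both included 0, and so did that of Klf16. Klf16 (chromosome 10, 80567121 to 80577296), which was described as a regulator of dopamine receptor genes, had 137 counts in NT and 123 in IL-4 (log2 ratio -0.18, interval -0.55 to 0.18). Klf10 over Klf11 changed 1.23-fold (interval 0.812 to 1.86). Klf16 over Klf13 changed 1.60-fold (interval 1.22 to 2.09). In all, 5 such pairs were compared: the 4 most alike in their fingers, and Klf9 with Klf13, which was picked with its values known.

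Transcript length moved with the ratio in this series and bears on the falls. The median log2 ratio of the 200 genes nearest in length was 0.20 at the length listed for Klf7, 0.00 at that of Klf4, -0.02 at that of Klf9 and -0.27 at that of Klf13, the longest model of the family at 6396 bases. With this median subtracted, Klf4 stood at 1.41 and Klf9 at 0.79, both still past the fold. Klf13 stood at -0.58 with an interval from -0.73 to -0.45, no longer past the fold. Klf7 stood at -1.01 at its deposited length but at -0.34 at the length of its longest GENCODE transcript. The median subtracted at the latter length, -0.47, lay inside the counting interval of Klf7 (-1.52 to -0.15). The remaining difference could thus not be told from 0. For the pairs, the change of Klf16 over Klf13 became 1.31-fold (interval 0.996 to 1.71), no longer separate from none. That of Klf6 over Klf7 became 1.73-fold (interval 1.08 to 2.81) at the deposited lengths. At the longest GENCODE transcripts this pair was not computed, but the single log2 ratios lay close together, at -0.23 for Klf6 and -0.34 for Klf7. The change of Klf4 over Klf2 (3.32-fold) still had an interval above 1. So did that of Klf9 over Klf13 (2.59-fold), but that pair was picked with its values known and lends no support. The rises of Klf4 and Klf9 were thus as large after this subtraction, whereas the size of the falls depended on it.

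The sequence just before the transcription start was examined for the members that moved. RefSeq windows of GRCm38.p6, from 250 bases before to 50 after the start, were matched for 8 of the 10 members, and the 120 bases before the start are shown for Klf4, Klf9 and Klf13. Capitals mark STAT-type palindromes (TTCNNNGAA, which reads the same on both strands) and CACCC-type sites (CCACCC, on either strand).
Klf4 (chr4:55532476-55532595, minus strand): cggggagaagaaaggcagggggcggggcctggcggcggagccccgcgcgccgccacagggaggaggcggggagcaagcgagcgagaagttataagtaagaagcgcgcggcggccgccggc
Klf9 (chr19:23141106-23141225, plus strand): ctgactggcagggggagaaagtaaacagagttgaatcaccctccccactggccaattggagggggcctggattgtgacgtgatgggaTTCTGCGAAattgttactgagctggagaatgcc
Klf13 (chr7:63938916-63939035, minus strand): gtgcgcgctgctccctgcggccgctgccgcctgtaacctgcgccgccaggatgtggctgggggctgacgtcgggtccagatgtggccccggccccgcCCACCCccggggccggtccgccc
The palindrome occurred in 1 of the 8 member windows, that of Klf9, at 33 bases before the start, and in 8.30% of all 32851 windows. The same palindrome with a spacer of 4 bases, the spacing that STAT6 prefers, occurred in 0 of the 8 and in 6.95% of all windows. A CACCC-type site occurred in the windows of Klf2, Klf3, Klf7 and Klf13, 4 of 8, and in 31.5% of all windows. Klf13 held its site at 23 bases before the start and Klf2 at 19. The Klf4 window held none of these motifs. Motif matches are letters in a short window and do not show binding.

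The KLF genes outside the list added 1 gene that moved. Beside the counts of this and the following gene lists, 4.07% of all genes with reads rose and 6.28% fell. Of 8 such genes, Klf18 could not be matched to a gene number and has no value here, 5 had reads, and only Klf8, a CtBP-recruiting relative of Klf3, had more than 3 counts in a library. Klf8 fell from 56 to 31 counts (log2 ratio -0.87, interval -1.56 to -0.22). Klf14 and Klf17 were listed in neither table. Among the Sp genes, the nearest relatives of the KLFs, 6 of 9 had reads and 0 moved past the fold in either direction. Sp1 had 934 counts in NT and 841 in IL-4, and Sp3 had 896 and 889. The 4 Sp genes with at least 50 counts had a median of -0.15 on the log2 scale, which became 0.00 with the length trend subtracted. Sp1, a long transcript of 7818 bases, went from -0.18 to 0.26 under that subtraction.

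Of 15 corepressors and coactivators that KLF proteins are known to use, 0 rose and 1 fell, and their median log2 ratio was 0.04 (-0.03 with the length trend subtracted). The gene that fell was Crebbp, which encodes the acetyltransferase CBP, from 561 to 312 counts (log2 ratio -0.87, and -0.40 with the length trend subtracted). Named for their roles and with their values known, Ctbp1 had 1888 counts in NT and 2257 in IL-4, Ctbp2 had 533 and 340, Sin3a had 646 and 622, and Sin3b had 685 and 746. Of 5 ubiquitin ligases known to act on KLF proteins, 0 moved past the fold. Fbxw7 had 579 counts in NT and 421 in IL-4, and Wwp1 had 1195 and 904.94.

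Among 12 genes known to act upstream of Klf2, Klf4 or Klf10 (a MAP kinase module with the MEF2 factors, Stat6, and TGF-β receptors with SMADs), 0 rose, 2 fell and the median log2 ratio was -0.36 (-0.22 with the length trend subtracted). Both that fell belong to TGF-β signalling. The receptor gene Tgfbr1 fell from 1343 to 700 counts (log2 ratio -0.97, interval -1.10 to -0.83), and was at -0.67 with the length trend subtracted. Smad3, a transducer of the pathway, fell from 207 to 81 counts (log2 ratio -1.38, interval -1.77 to -1.004) and stayed past the fold at -1.17. Of 6 genes known to be TGF-β-inducible, as Klf10 is, 1 rose and 2 fell. Bhlhe40 rose from 3506 to 7573 counts, while Tgfbi fell from 92 to 31 and Skil from 406 to 239. Skil was at -0.79, and at -0.41 with the length trend subtracted, so that 1 gene of this list, Tgfbi, was then counted as lower.

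Neither the genes that share a known inducer with Klf9 nor the known targets of Klf2 and Klf4 moved in a single direction. Of 6 glucocorticoid-inducible genes, 1 rose and 1 fell. Their median log2 ratio was -0.30, and it was 0.04 over the 5 that had at least 50 counts. With the length trend subtracted 2 fell, Per1 and Dusp1. Fkbp5, an immunophilin, rose from 82 to 190 counts (log2 ratio 1.18, interval 0.80 to 1.58). The clock gene Per1 fell from 364 to 173 counts (log2 ratio -1.10, interval -1.37 to -0.84). Of 8 genes known as targets of KLF2 or KLF4 in other cells, 1 rose and 2 fell. The cell-cycle inhibitor Cdkn1a rose from 465 to 900 counts. Thbd, which encodes thrombomodulin, fell from 465 to 232 counts, and the sphingosine-1-phosphate receptor gene S1pr1 from 169 to 43.

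Several KLF genes belong to the immediate-early class, and so genes of that class were set beside them. The only time sampled after IL-4 was 6 h, so earlier changes of these genes were not seen. Over all genes with reads, 4.07% rose and 6.28% fell. Of 16 immediate-early genes, 6 rose, 0 fell and the median log2 ratio was 0.18, or 0.55 over the 13 that had at least 50 counts. With the length trend subtracted, 5 rose and 1 fell, Dusp1, which had 176 counts in NT and 115 in IL-4 (-0.64, and -0.76 with the trend subtracted). Ier3 rose from 60 to 728 counts (log2 ratio 3.56), Egr2 from 970 to 3224.68 (1.70) and Atf3 from 4981 to 10192 (1.01). Zfp36 rose from 580 to 1033 counts (0.80), but was at 0.68 with the length trend subtracted. Fos and Jun, the classical members, were named with their values known. Fos had 94 counts in NT and 102 in IL-4, and Jun had 2698 and 2692.

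**Figure D4:**
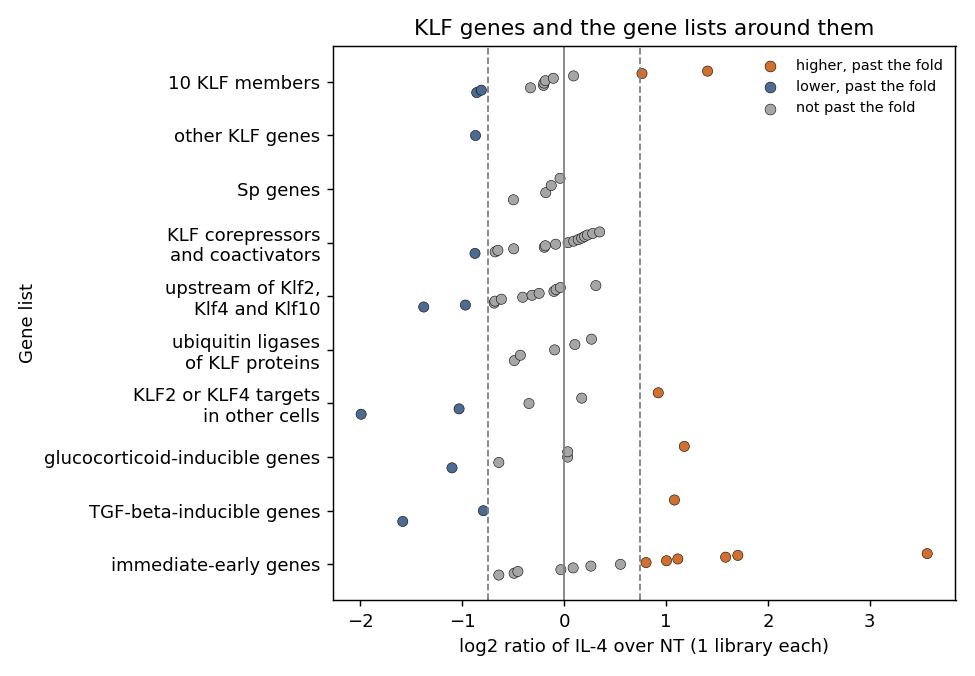
Log2 ratio of IL-4 over NT for the 10 KLF genes (top row) and for the genes of each list around them that had at least 50 counts in the library with more; each point is a gene, dashed lines mark the fold of 0.75, and colour marks genes past it. Klf4 and Klf9 lie to the right and Klf7 and Klf13 to the left, and the immediate-early row holds 6 genes past the fold on the right.

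Markers of the labelled cell type were abundant in both libraries. All 8 macrophage markers were listed, with summed counts of 188650 in NT and 195842 in IL-4. Of these, Csf1r rose from 6236 to 11896 counts and Cd14 fell from 1219 to 591. The macrophage sums rest mostly on Lyz2 (129463 counts in NT and 126458 in IL-4) and Cd68 (44626 and 48679). Fcgr1, of the same list, had 189 and 147, fewer than Col1a1 of the fibroblast list (723 and 573). Sums over 4 genes each were lower for other cells, at 1919 and 1626 for fibroblasts and 182 and 86 for endothelium. They were 114 and 99 for mesothelium, 106 and 96 for B cells, 20 and 15 for T cells, and 53 and 28 for eosinophils. The remaining lists (neutrophil, mast, dendritic and erythroid cells) had at most 64 counts in either library, and the 2 genes of resident peritoneal macrophages had 66 and 87. Of the defining markers, Ly6g, S100a9, Mpo, Epx, Ccr3 and Tek were listed in neither library. The endothelial sum rests on Kdr, which fell from 171 to 66 counts, whereas Cdh5 had 5 counts in each and Pecam1 had 6 and 15. Siglecf, of the eosinophil list, fell from 53 to 27 counts and Msln, of the mesothelial list, from 12 to 2. The other mesothelial markers did not share such a fall: Upk3b had 12 counts in NT and 7 in IL-4, Wt1 68 and 65, and Krt19 22 and 25. The part of such cells in the values of the KLF genes was not tested.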

How the data were processed

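RNA of thioglycollate-elicited peritoneal macrophages was sequenced in 2 libraries (NT, and IL-4 for 6 h), grouped by the sample titles. According to the labels, Bowtie was used by the authors for mapping to GRCm38/mm10 and RSEM for quantification (versions not given in the sources used here). The deposited expected counts are not scaled, and the deposited FPKM values were scaled by the authors for transcript length and depth. A gene absent from a table was set to 0. Gene numbers were matched to symbols through RefSeq for 15587 of 15623 genes.

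The log2 ratio was computed on counts scaled to the library totals with 0.5 added. Rounded counts gave exact 95% Clopper-Pearson intervals. A gene was past the fold where its log2 ratio reached 0.75 in size and the interval excluded 0. Calculations were checked on simulated counts. The alternatives were an exact test with assumed variation and TMM scaling from edgeR 4.0.16, DESeq2 1.42.0 size factors, other folds, filters and pseudocounts, and subtraction of a length trend (the median over the 200 genes closest in length that had 200 or more reads). Python 3.11.15, scipy 1.17.1 and R 4.3.3 were used.

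The members and gene lists were chosen with earlier results of these data known. The text names every member. From each list it names the genes past the fold, at most the 4 with the most reads. Where none was past it, the 2 with the most reads are named. Others are said to be chosen with values known, except Dusp1 and the cell markers. Dusp1 was named because it was past the fold with the length trend subtracted, and single cell markers were named outside this rule. No gene was named for likeness to a member, since over 2 libraries any gene with the same ratio would be as alike. The comparison of coding DNA replaced a planned comparison of proteins, which was not run, and its finger pattern (2 or 4 residues between the cysteines) was set then. Length at the longest GENCODE transcript was added after seeing the data, as was the length trend for pairs and lists.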

Additional observations from a re-analysis of the deposited data

How the results depend on the processing

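No paired analysis was possible because only 1 library stands in each group. The main values were 2 members higher and 2 lower, and 635 of all genes higher and 979 lower. Over the 10 members, 140 values under an alternative were compared. Of these, 120 kept their side of the fold and 19 lost it. The other 1, that of Klf3 at its GENCODE length (0.13), changed sign without being past the fold. All 19 losses fell on Klf4, Klf7, Klf9 and Klf13, since only these members were past the fold to begin with. The filter of at least 50 counts, the fold change over 1.5 and the fold alone could not remove any member. The 120 kept values therefore do not measure how robust the rises and falls were. No member that rose or fell changed direction. The other scalings moved every ratio by at most 0.04 and left 2 members higher and 2 lower, with Klf9 at 0.75 when the 100 most abundant genes were left out of the total. With 1 added to FPKM, 1 member was higher (Klf4) and 1 lower (Klf13), and 440 of all genes were higher and 448 lower. FPKM with 0.1 added, at the fold alone, gave 1139 of all genes higher and 1659 lower. The fold with no condition on the interval gave 1693 higher and 2598 lower. A log2 ratio of at least 1 left 1 member higher (Klf4) and 0 lower, with 474 of all genes higher and 580 lower. Requiring the whole interval past the fold also left 1 member higher (Klf4) and 0 lower, with 345 of all genes in each direction. The edgeR exact test with an assumed coefficient of variation of 0.2 left 0 members higher and 0 lower, with 178 and 80 of all genes. With 0.4 it left 0 and 0 members, with 41 and 4 of all genes. With the length trend subtracted 2 members were higher and 1 lower (Klf7), with 634 of all genes higher and 753 lower. At the longest GENCODE transcript, a setting added after seeing the data, 2 members were higher and 0 lower. All genes were not counted under that setting. For the length, interval and fold settings the change follows from the setting itself; for the others the cause was not tested. Depth limits Klf7, Klf11 and Klf2, whose intervals were the widest of the family.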
